A study of Mus musculus with 36 samples.

Results

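Circular RNAs of the mouse frontal cortex were compared across lights-off, at ZT13 (19 h clock time, in the dark phase) against ZT9 (15 h, in the light phase). The members were the 3 replicates of each time point by their labels, 6 of the 36 samples of the series, which holds the frontal cortex and the hippocampus at 6 time points. All were male C57BL/6 mice (of the N substrain by the study's methods) of 9 to 10 weeks that carried no transgene and received no treatment, kept with lights on from 6 to 18 h. Blood was removed by perfusion before the frontal lobes were dissected, and rRNA-depleted total RNA was sequenced. ZT9 replicate 3 stood apart from the other libraries, so results are given with and without it.

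A circular RNA (circRNA) forms when the spliceosome joins the end of an exon back to the start of the same or an earlier exon, and such a circle has neither cap nor tail and resists exonucleases. Circles are plentiful in the brain, where many come from genes of the synapse, and they can outlast the linear transcripts of their host gene. They are counted by reads that cross the back-splice, here called circular reads, since the rest of a circle has the same sequence as the linear RNA. In whole tissue, fewer cells and less RNA per cell cannot be told apart.

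Of the circRNAs listed for the frontal cortex, 4790 were present in 2 or more replicates at some time point and were kept, and 4024 of these had reads in the 6 samples. Circular reads of the kept circRNAs came to 17464, 15776 and 6555 in replicates 1, 2 and 3 at ZT9. At ZT13 they came to 12641, 17643 and 17755. ZT9 replicate 3 thus had the fewest, and the time points overlapped. The mean was 13265 ± 5872 (SD, n = 3) at ZT9 and 16013 ± 2921 (SD, n = 3) at ZT13, a difference of 20.7% within the spread between replicates (two-sided exact permutation test, p = 0.5). With 3 samples on each side no such test gives a p under 0.1. The difference was -3.65% once ZT9 replicate 3 was left out (exact permutation test, p = 1), so the direction rested on that library. These totals are not scaled to sequencing depth.

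Over 236 circRNAs with at least 60 reads in the 6 samples, ZT9 replicate 3 was also the least like the rest. Pearson's r of its log2 shares with the other 17 cortex libraries, taken across circRNAs that are not independent replicates, lay between 0.261 and 0.400 with a median of 0.330. For the other 5 libraries the median r with the cortex was between 0.734 and 0.776. ZT9 replicates 1 and 2 correlated at 0.759 with each other, but at 0.322 and 0.318 with replicate 3. Among the ZT13 replicates, r was between 0.696 and 0.882. Counting error is larger in a library with fewer reads, and how much of its low r came with the low depth of ZT9 replicate 3 was not tested. edgeR's scaling factor was 1.26 for ZT9 replicate 3 and between 0.962 and 1.01 for the others, and the common coefficient of variation between replicates was 0.265 with it and 0.212 without it.

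**Figure D1:**
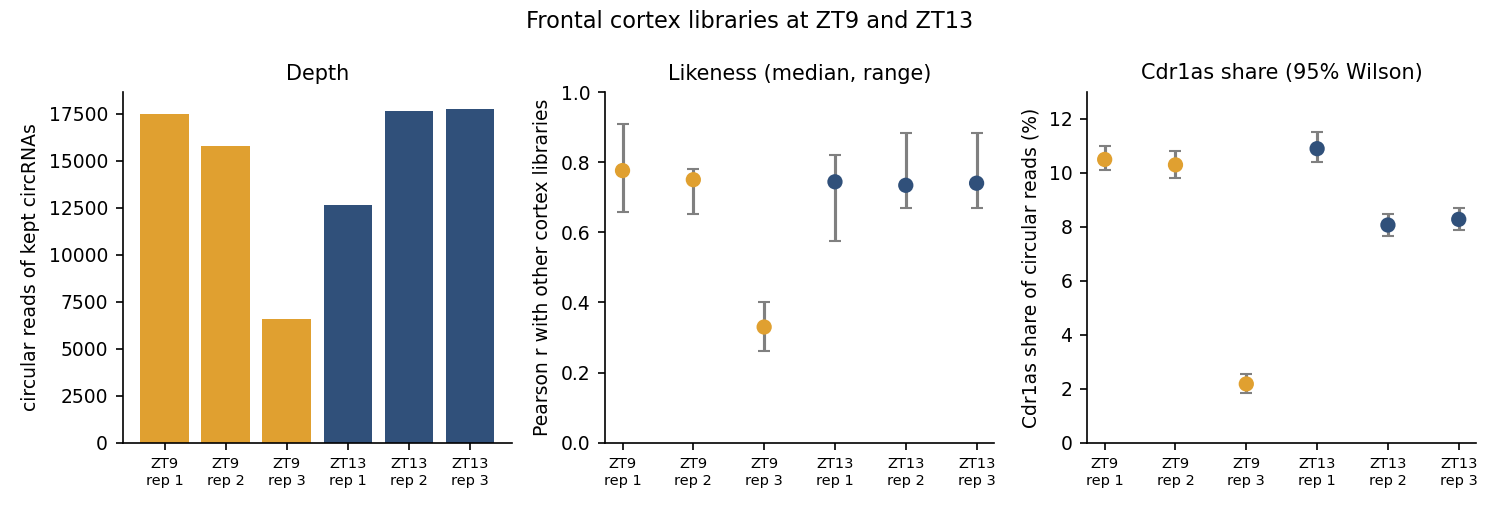
Circular reads of kept circRNAs (left), Pearson's r of log2 shares with the other frontal cortex libraries (middle, points are medians and bars the range, with ZT9 replicate 3 left out of the libraries the others are compared with) and the share of Cdr1as in percent (right, bars are 95% Wilson intervals) in each of the 6 samples, ZT9 in yellow and ZT13 in blue. ZT9 replicate 3 is lowest in all 3 panels, with 6555 reads, a median r of 0.330 and a share of 2.18%.

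Individual circles were missing from ZT9 replicate 3 more often than its depth gave. From their mean share in the other cortex libraries, 83 circRNAs were expected at 10 reads or more in it, and 8 of these had 0 reads (9.64%). Among the 8 was a junction in Gm26917, a gene that resembles ribosomal RNA. It was found in only 6 of the 18 cortex libraries and was also at 0 in ZT9 replicate 1 and ZT13 replicate 1. In the other 5 libraries between 188 and 293 circRNAs were expected at that level, and between 0 and 3 of them had 0 reads, at most 1.6%. The missing circles included some of synaptic hosts. A circle of Rims1 (chromosome 1, 22346293 to 22393948), which encodes an active zone scaffold, had 64, 64 and 0 reads at ZT9 and 37, 50 and 51 at ZT13. The circle of Homer1 exons 2 to 5 (chromosome 13, 93341756 to 93356079), from a postsynaptic scaffold gene, had 43, 43 and 0 reads at ZT9 and 19, 24 and 28 at ZT13. Stk39 (chromosome 2, 68390914 to 68410141), a kinase that acts on chloride cotransporters, had 47, 38 and 0 reads at ZT9 and 31, 35 and 42 at ZT13. In each case only ZT9 replicate 3 was at 0 among the 18 cortex libraries. Unc79 (chromosome 12, 102991350 to 103021876), part of the sodium leak channel complex, had 4 reads in ZT9 replicate 3 against 79 and 72 in the other ZT9 libraries.

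Other circles were in excess there. Slc8a1 exon 2 (chromosome 17, 81647809 to 81649638), from the gene of a sodium-calcium exchanger, had 107 reads in ZT9 replicate 3 where 35.8 were expected. The single-exon circle of Tcf20 (chromosome 15, 82851513 to 82857284) had 67 reads where 26.1 were expected. In all, 14 circRNAs had less than 25% of an expectation of at least 10 reads, Cdr1as among them, and 21 reached 2.5 times an expectation of at least 5 reads. The median GC content was 43.7% for the first group, over 12 circles bounded by exons, and 48.9% for the second, over 18 such circles. It was 47.1% over all 169 exon-bounded circles expected at 5 reads or more. Of the 14 circles in deficit, 7 also had 0 reads in replicate 1 of the hippocampus at ZT13, a library of 5722 circular reads, against 1 of the 21 in excess and 36 of all 186 expected at 5 reads or more. The part of base composition in these deficits was not tested.

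The number of circRNAs found rises with depth, so it was set on equal terms. With every library reduced to 6555 reads, the expected number with at least 2 reads was 1159, 1183 and 1117 at ZT9 and 1191, 1171 and 1200 at ZT13. Means were 1153 ± 33.4 (SD, n = 3) and 1187 ± 15.0 (SD, n = 3), a difference of 2.96% that was not past the test (two-sided exact permutation test, p = 0.2). With ZT9 replicate 3 left out, and at the next smallest total of 12641 reads, the difference was 1.75% (exact permutation test, p = 0.4). Over all circRNAs listed, before the rule on replicates, it was -3.09% (exact permutation test, p = 0.7), so its direction depended on which circRNAs were counted.

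Across replicates, 524 of the 4024 kept circRNAs with reads in the 6 samples were found in all 6. There were 128 found in ZT9 replicates 1 and 2 and in no ZT13 library. Another 57 were found in all 3 ZT13 libraries and in neither of those ZT9 libraries, a rule unlike the first. With all 3 libraries asked for on each side, the order turned. Then 15 were found in all 3 ZT9 libraries and no ZT13 library, and 45 in all 3 ZT13 libraries and no ZT9 library. The ZT9 rule then included the shallow ZT9 replicate 3, in which 1117 kept circRNAs were found. In the ZT13 libraries 1992, 2399 and 2505 were found. Detection of this kind rests on few reads for most circles, and it was not tested.

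Shares of the circular reads were next compared as a description of library make-up, with 95% Wilson intervals that cover counting error only. Cdr1as, the most abundant circle, took 10.5% (10.1 to 11.0%), 10.3% (9.81 to 10.8%) and 2.18% (1.85 to 2.56%) of the reads at ZT9. At ZT13 it took 10.9% (10.4 to 11.5%), 8.07% (7.68 to 8.48%) and 8.28% (7.89 to 8.7%). The mean difference was 1.44 percentage points (two-sided exact permutation test, p = 0.8), and -1.3 points without ZT9 replicate 3 (exact permutation test, p = 0.4). The sign therefore turned with that library.

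Junctions on unplaced contigs or in genes that resemble ribosomal RNA took 1.48%, 1.36% and 0.778% of the reads at ZT9 and 0.506%, 2.01% and 1.47% at ZT13. The highest and lowest values were both at ZT13, with Wilson intervals of 1.81 to 2.22% in replicate 2 and 0.397 to 0.646% in replicate 1. Means differed by 0.124 points (exact permutation test, p = 0.9), against -0.0893 without ZT9 replicate 3 and -0.216 without ZT13 replicate 2. Circles that span under 1000 bases of the genome, about the size of a single exon, took 7.93%, 8.01% and 11.7% at ZT9 and 8.14%, 9.41% and 9.13% at ZT13. ZT9 replicate 3 lay above all others, and its interval began at 11%. The intervals of ZT13 replicates 2 (8.99 to 9.85%) and 3 (8.71 to 9.56%) also lay above those of ZT9 replicates 1 (7.54 to 8.34%) and 2 (7.6 to 8.45%). The difference of means was -0.335 points (exact permutation test, p = 1), 0.923 points without ZT9 replicate 3 and 0.0423 points without ZT13 replicate 1. Neither share separated the time points with all samples. Without ZT9 replicate 3 the short circles had all ZT13 values above both ZT9 values (exact permutation test, p = 0.2).

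Most circular reads, with Cdr1as included, belonged to circles whose ends both lie on exon boundaries of one transcript. Their share ran from 85.5% in ZT9 replicate 3 to 89.5% in ZT13 replicate 1. Cdr1as was left out of the values that follow. Among the other circles of this kind the median spliced length weighted by reads was 563, 558 and 516 bases at ZT9 and 557, 535 and 527 bases at ZT13. The shares of reads on circles of 5 or more exons were 36.5%, 37.6% and 35.4% at ZT9 and 35.8%, 35.5% and 35.8% at ZT13. Mean GC content was 48.6% in ZT9 replicate 3 and between 47.6% and 47.9% in the other 5 libraries. Replicate 1 of the hippocampus at ZT13, the other shallow library, had a mean GC content of 48.9%. These values describe the libraries and were not tested.

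No single circRNA passed the test between ZT13 and ZT9. Of 518 circRNAs with enough reads, the quasi-likelihood test of edgeR, adjusted after Benjamini and Hochberg, called 0 (0%) at an adjusted p under 0.05, with 18 at an unadjusted p under 0.05 (3.47%), of which 10 were higher and 8 lower at ZT13. DESeq2 also called 0, with 16 at an unadjusted p under 0.05. Fold changes lay evenly around 0, with 278 above it, 240 below it and a median log2 fold change of 0.05. Scaling by DESeq2's size factors gave 8 higher and 12 lower at an unadjusted p under 0.05, and scaling to total circular reads gave 7 and 14, so the balance of directions depended on the scaling. In the fit that lacked ZT9 replicate 3, edgeR called 0 of 598 circRNAs (0%), with 37 at an unadjusted p under 0.05 (6.19%), 8 higher and 29 lower, and DESeq2 called 0, with 24 at an unadjusted p under 0.05. When ZT9 replicate 1 or ZT9 replicate 2 was left out instead, edgeR called 1 circRNA, a circle of Ptms described below.

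Leaving out ZT9 replicate 3 changed which circles stood at the top. Only 7 circRNAs had an unadjusted p under 0.05 both with and without it, 38.9% of the 18 and 18.9% of the 37. Of 517 circRNAs tested both ways, the fold changes of 134 turned sign. The median size of the log2 fold change was 0.33 with and 0.35 without it, below the median standard errors of 0.51 and 0.49. Normalized reads of 43 circRNAs (8.3%, where chance gives 10%) did not overlap between the time points, 30 with all ZT13 values above all ZT9 values and 13 with all below.

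**Figure D2:**
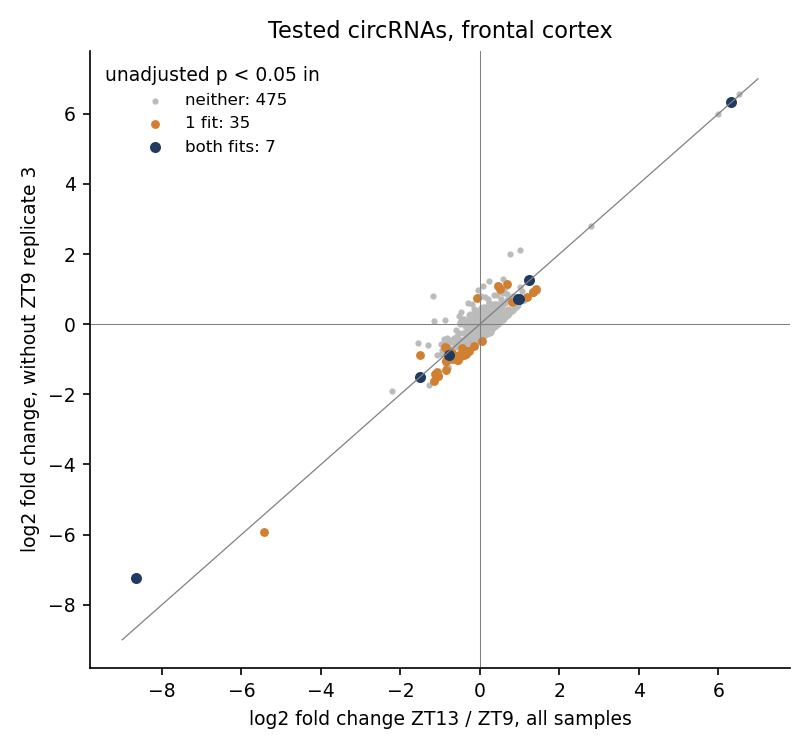
Log2 fold changes of ZT13 over ZT9 for the 517 circRNAs tested both ways, fitted with all samples (x axis) and without ZT9 replicate 3 (y axis). Dark blue points are the 7 circRNAs with an unadjusted p under 0.05 in both fits and orange points those in 1 fit, and the diagonal marks equal values.

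Among circles higher at ZT13 was one of Prkce (chromosome 17, 86488160 to 86496111, plus strand, exons 8 to 11 of Prkce-201, 614 bases), the gene of protein kinase C epsilon. It had 23, 10 and 4 reads at ZT9 and 19, 28 and 35 at ZT13. After normalization these were 13.6 ± 7.74 and 28.1 ± 4.33 (SD, n = 3 each), without overlap. By edgeR the log2 fold change was 0.97 with ZT9 replicate 3 (standard error 0.33, adjusted p = 0.959) and 0.73 without it (adjusted p = 0.752). Here the shallow library had the lowest value and added to the difference. Esyt2 encodes an extended synaptotagmin that tethers the endoplasmic reticulum to the plasma membrane. Its circle of exons 2 to 6 (chromosome 12, 116317830 to 116324210, plus strand, 417 bases) had 14, 8 and 2 reads at ZT9 and 13, 23 and 18 at ZT13. Its log2 fold change of 0.98 (standard error 0.35, adjusted p = 0.959) was 0.71 without ZT9 replicate 3 (adjusted p = 0.752).

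A further 5 circles that were higher at ZT13 had their fewest reads in ZT9 replicate 3. Robo1, the axon guidance receptor for Slit (chromosome 16, 72933213 to 72935786), had 6, 7 and 0 reads at ZT9 and 7, 14 and 13 at ZT13. Boc, a cell surface co-receptor for Sonic hedgehog (chromosome 16, 44520225 to 44521335), had 9, 4 and 0 reads and 11, 11 and 15. Aff3, which encodes a nuclear protein of transcription elongation complexes, had 5, 5 and 0 reads and 11, 10 and 9 on a junction with ends off the exon boundaries (chromosome 1, 38534906 to 38539001). Wdr7 had 12, 9 and 3 reads and 9, 22 and 18. The phosphatase gene Ptp4a2 had 4, 13 and 2 reads and 9, 14 and 20. For these 5 the log2 fold changes with all samples were 1.19, 1.34, 1.41, 0.82 and 0.96 in that order, and 0.78, 0.93, 1.00, 0.62 and 0.73 without the shallow library. When each replicate was left out in turn, they ran from 0.78 to 1.67, 0.93 to 2.22, 1.00 to 1.78, 0.62 to 1.04 and 0.58 to 1.96. Each stayed above 0, and none had an unadjusted p under 0.05 once that library was left out.

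Among circles lower at ZT13, Gnptg, whose product helps to tag lysosomal enzymes with mannose 6-phosphate, kept its value without ZT9 replicate 3. The circle of exons 6 to 8 (chromosome 17, 25235182 to 25235627, minus strand, 292 bases) had 20, 7 and 8 reads at ZT9 and 3, 3 and 8 at ZT13. Normalized reads were 14.1 ± 6.15 and 4.77 ± 2.47 (SD, n = 3 each), and the ranges overlapped. By edgeR the log2 fold change came to -1.51, with a standard error of 0.60 and an unadjusted p of 0.019 (adjusted p = 0.959), and to -1.50 without that library. Rgs7 encodes a regulator that speeds the shut-off of G protein signals. Its circle of exons 5 to 9 (chromosome 1, 175121728 to 175153230, minus strand, 383 bases) had 14, 18 and 7 reads at ZT9 and 7, 9 and 10 at ZT13. The normalized values, 15.4 ± 3.1 against 9.04 ± 0.481, did not overlap. The log2 fold change was -0.78 (standard error 0.35, adjusted p = 0.959), and -0.88 without ZT9 replicate 3 (adjusted p = 0.752).

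In 4 further circles of this group the fold change was smaller in size without the shallow library. Ppp2r2c, a regulatory subunit of protein phosphatase 2A (chromosome 5, 36922968 to 36940261), had 24, 14 and 16 reads at ZT9 and 11, 14 and 10 at ZT13. Hibadh, an enzyme of valine breakdown (chromosome 6, 52619977 to 52630349), had 14, 13 and 13 reads and 4, 10 and 12. Sergef (chromosome 7, 46614618 to 46635556) had 6, 9 and 13 reads and 5, 5 and 2. A circle of the postsynaptic gene Anks1b (chromosome 10, 90042546 to 90077142) had 3, 10 and 7 reads and 2, 0 and 3. Log2 fold changes were -0.85, -0.88, -1.50 and -2.21 in that order, and -0.68, -0.64, -0.88 and -1.90 without ZT9 replicate 3. None of the 4 had an unadjusted p under 0.05 in that case.

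The smallest adjusted p belonged to a circle of Ptms, the gene of parathymosin, a small acidic nuclear protein. This junction (chromosome 6, 124914408 to 124914710, minus strand) had 13, 21 and 65 reads at ZT9 and 0 in each ZT13 library. With a floor of 3 reads per library, the circle was at least 16.7-fold lower at ZT13 after TMM scaling and 20.8-fold as a share of kept circular reads. When ZT9 replicate 3 was left out, it was at least 5.59-fold and 5.4-fold lower on these scales. edgeR gave an adjusted p of 0.0722 with all samples (unadjusted p of 0.000139) and 0.193 without ZT9 replicate 3, both over the threshold. Across its 17 alternatives the adjusted p ran from 2.81e-13 to 0.984. It passed without ZT9 replicate 1 (0.0114) and without ZT9 replicate 2 (0.0372). It also passed with a replicate block (0.0135), under a stricter rule that asked for all 3 replicates (0.0087) and with low counts not filtered (2.81e-13). A fit of ZT9 and ZT13 alone that lacked ZT9 replicate 3, chosen after seeing the data, passed as well (0.00797). It did not pass by DESeq2 (0.984, and 0.975 without ZT9 replicate 3) or with robust estimation of the spread in edgeR (0.981), the last 2 also chosen after seeing the data, nor in the other fits. The count was all or none elsewhere too, since 4 of the other 12 cortex libraries had reads of it, up to 23.

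The neighbouring junctions of Ptms changed the picture. Of the listed Ptms circles, 9 had reads in the 6 samples, and 4 of these start at the same base, 124914408, and end at different points of Ptms-201. The circle that ends at 124914704 was found in all 18 cortex libraries and had 12, 8 and 63 reads at ZT9 and 16, 20 and 16 at ZT13. The one that ends at 124914686 had 61 reads in ZT9 replicate 3 and 0 in the other 5 libraries, and the one that ends at 124914959 had 0, 6 and 28 reads at ZT9 and 0 at ZT13. Summed over all Ptms circles, the reads were 27, 35 and 231 at ZT9 and 16, 27 and 25 at ZT13. Per 10000 circular reads this made 13.4, 19.5 and 285 at ZT9 and 11.1, 13.1 and 12.2 at ZT13. Only ZT9 replicate 3 stood far from the rest. For the 5 kept circles of the gene together, with 27, 35 and 158 reads at ZT9 and 16, 25 and 25 at ZT13, edgeR gave -2.42 on the log2 scale, with a standard error of 0.62 and an unadjusted p of 0.000598 (adjusted p = 0.334), and -0.24 without ZT9 replicate 3 (adjusted p = 0.919). It passed when ZT9 replicate 1 (adjusted p of 0.00632) or ZT9 replicate 2 (0.0169) was left out, and over all alternatives the log2 fold change ran from -2.89 to -0.23.

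The back-splice sequences of these 4 Ptms circles are shown because they share their last bases and differ only in the base at which the circle begins. They are read 5′ to 3′ on the minus strand from the GENCODE M21 transcript Ptms-201 (GRCm38, coding), with the last 15 bases of the circle in lower case and its first 15 bases in capitals.
Ptms 124914408 to 124914686: actgctgaagaggagGAAGAAGAAACTGCA
Ptms 124914408 to 124914704: actgctgaagaggagAATGGAGCTGAGGAA
Ptms 124914408 to 124914710: actgctgaagaggagGAGGAGAATGGAGCT
Ptms 124914408 to 124914959: actgctgaagaggagGAGAAGGCCGGCCGG
The circles that end at 124914704 and 124914710 have spliced lengths of 129 and 135 bases, so the second is the first with 6 more bases at its start. The last 6 bases of each also equal the 6 transcript bases just before its own start, which leaves the exact point of joining undefined by the read alone. Whether the junctions are separate circles or alternative placements of the same reads was not tested.

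With ZT9 replicate 3 left out, circles that were near 0 in that library came to the top, most of them lower at ZT13. They are named after their values were seen. Zdhhc21, a palmitoyl transferase gene (chromosome 4, 82835446 to 82854115, minus strand, exons 2 to 6, 694 bases), had 59, 58 and 2 reads at ZT9 and 23, 34 and 38 at ZT13. Its log2 fold change by edgeR was -0.89 without the shallow library, with a standard error of 0.27 and an unadjusted p of 0.00241 (adjusted p = 0.360), and -0.41 with it (adjusted p = 0.980). The circle of Pms1, a mismatch repair gene (chromosome 1, 53256629 to 53290423), had 5, 10 and 0 reads at ZT9 and 0 in each ZT13 library, at least 2.39-fold lower on the same floor without ZT9 replicate 3. This circle had reads in all 12 libraries of the other time points, between 2 and 13. Nol4 went the other way, with 12, 10 and 19 reads at ZT9 and 20, 29 and 21 at ZT13, a log2 fold change of 1.09 without ZT9 replicate 3 (adjusted p = 0.400) and 0.47 with it (adjusted p = 0.980). None of these passed without that library, and of those also tested with it, Zdhhc21 and Nol4, neither did. The Pms1 circle had too few reads to be tested with all samples.

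**Figure D3:**
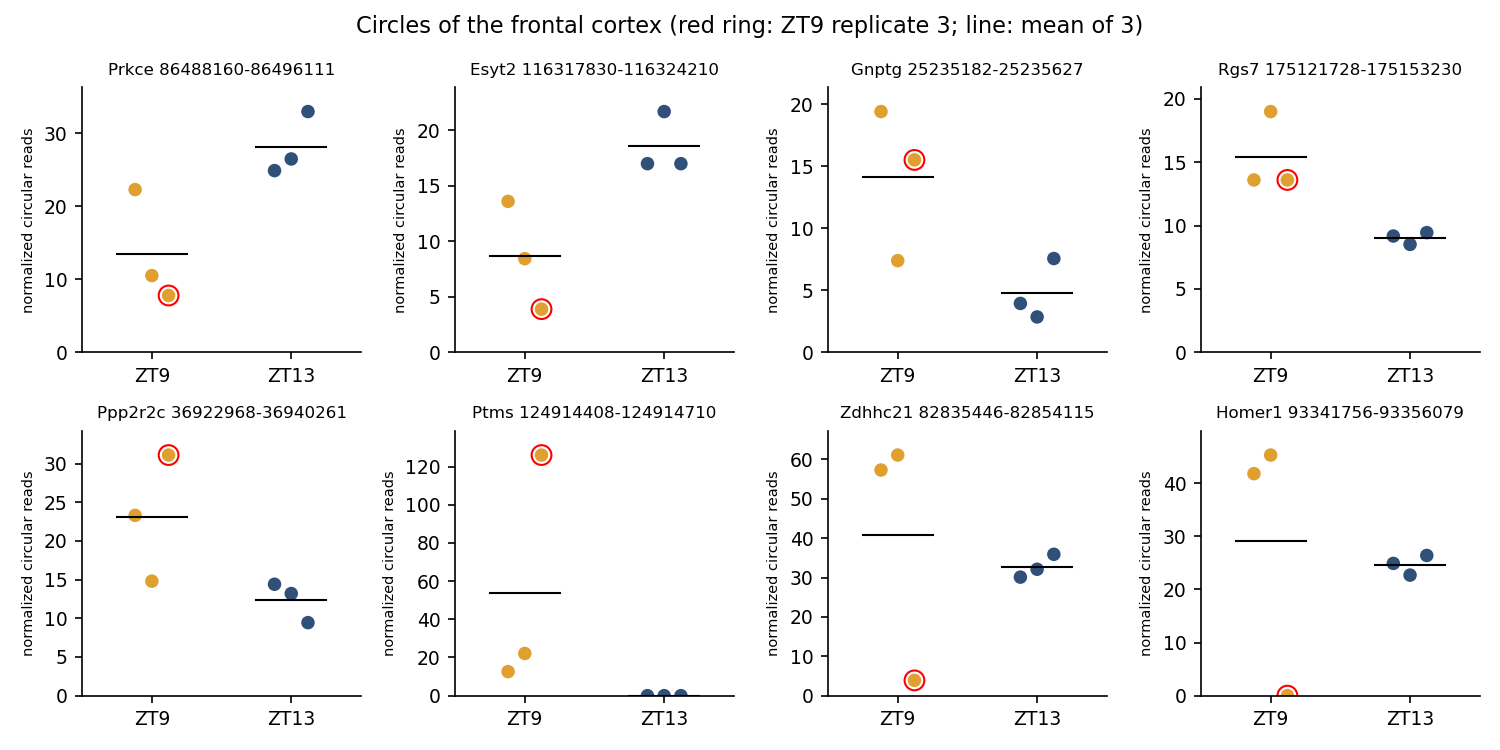
Normalized circular reads of 8 circles at ZT9 (yellow) and ZT13 (blue), with 1 point per sample, a line at the mean of the 3 replicates and a red ring around ZT9 replicate 3. Prkce and Esyt2 are above their ZT9 values in all 3 ZT13 samples, while the ringed sample is far from its group in Ptms (126), Zdhhc21 (3.88) and Homer1 (0).

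Back-splices of the circles named above that kept an unadjusted p under 0.05 both ways, and of Zdhhc21 and Homer1, are given so that each can be told from other circles of its gene. Each line holds the last 15 bases of the last exon in lower case and the first 15 bases of the first exon in capitals, 5′ to 3′ in the sense of the gene, from GENCODE M21 transcripts on GRCm38.
Prkce exons 8 to 11: tgcttccagaccaagTCTGCAAAATGAATG
Esyt2 exons 2 to 6: ttccttaggaaaccaGTTCATTTTCCAGAC
Gnptg exons 6 to 8: ctgatcacaccacagCATCTGGCATGAGTG
Rgs7 exons 5 to 9: gtccacaggcctgtgTGGAGGCTCTCCATT
Zdhhc21 exons 2 to 6: aaaaagcgtaacttgGTACTCACAGAGAAC
Homer1 exons 2 to 5: gccatttccacatagGGAGCAACCTATCTT
The Prkce, Esyt2, Gnptg, Rgs7 and Homer1 circles lie within the coding region, and that of Zdhhc21 also covers part of a UTR.

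The 6 most abundant circles after Cdr1as did not pass either, and all 6 overlapped between the time points. Tulp4 (chromosome 17, 6137211 to 6139156) had 197, 172 and 52 reads at ZT9 and 143, 178 and 181 at ZT13, and its log2 fold change was 0.14 ± 0.21 (standard error). Gigyf2 (chromosome 1, 87364104 to 87380008), from a gene of translational repression, had 160, 150 and 120 reads and 107, 194 and 168, with -0.17 ± 0.21 (standard error). A junction on the unplaced contig JH584304.1 (25369 to 60857) had 213, 117 and 24 reads and 54, 148 and 108, the widest spread of the 6. Dtnb (chromosome 12, 3617606 to 3648389), from the gene of beta-dystrobrevin, had 132, 97 and 28 reads and 89, 106 and 120. The large exon 2 circle of the cadherin gene Fat3 (chromosome 9, 16374949 to 16378254, 3306 bases) had 116, 111 and 42 reads and 85, 85 and 98. For Slc8a1 the reads were 92, 77 and 107 at ZT9 and 63, 105 and 86 at ZT13. Their log2 fold changes were -0.29, 0.18, -0.15 and -0.49 for the contig junction, Dtnb, Fat3 and Slc8a1. All 6 had an adjusted p of 0.98 from edgeR. In the fit that lacked ZT9 replicate 3 the values for Tulp4, Gigyf2, Dtnb and Slc8a1 were -0.13, 0.00, -0.11 and 0.00, with standard errors from 0.14 to 0.19, so the estimates came nearer to 0 or turned sign. The contig junction was at -0.69 and Fat3 at -0.32 in that fit, with unadjusted p of 0.159 and 0.123.

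Circles of the same host gene were then summed, which gave 559 host genes with enough reads out of 2155. edgeR's test called 0 of the 559 (0%), with 24 at an unadjusted p under 0.05 (4.29%), 14 higher and 10 lower at ZT13. DESeq2 called 0, with 23 at an unadjusted p under 0.05. After ZT9 replicate 3 was set aside it was 0 of 617 (0%), with 43 at an unadjusted p under 0.05 (6.97%), 19 higher and 24 lower, and 0 by DESeq2 with 37. Without ZT9 replicate 1 or ZT9 replicate 2, 1 host gene was called, Ptms. Of the 24, 13 also had an unadjusted p under 0.05 without ZT9 replicate 3, 54.2% of the 24 and 30.2% of the 43.

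Among hosts with several circles, some were higher at ZT13. Scmh1, a Polycomb group gene, had 9, 7 and 2 reads on 3 circles at ZT9 and 13, 26 and 12 at ZT13, with a log2 fold change of 1.28 (adjusted p = 0.969 from edgeR) and of 1.14 without the shallow library. Prkce summed to 29, 17 and 6 reads and 23, 38 and 46, with a log2 fold change of 0.83. Zfp62, a zinc finger gene, had 5, 6 and 2 reads and 17, 12 and 8, with a log2 fold change of 1.31. Lingo2, which encodes a leucine-rich repeat membrane protein, had 0 reads in each ZT9 library and 5, 0 and 11 at ZT13, at least 1.24-fold higher as a share of kept circular reads on a floor of 3 reads per library (1.39-fold after TMM scaling). With ZT9 replicate 3 left out it was at least 1.87-fold higher as a share and 1.9-fold after TMM scaling. The other 3 kept their direction without ZT9 replicate 3, and none of the 4 passed the adjustment.

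Hosts lower at ZT13 included the potassium channel gene Kcnma1 and the release inhibitor Stxbp5l. Kcnma1, which encodes the large-conductance calcium-activated channel, had 8, 9 and 5 reads at ZT9 and 3, 4 and 0 at ZT13, and edgeR put it at -1.84 on the log2 scale (standard error 0.69, adjusted p = 0.969). Stxbp5l, or tomosyn-2, had 30, 17 and 9 reads and 10, 12 and 9, with a log2 fold change of -1.04 (adjusted p = 0.969). C2cd5 had 20, 16 and 5 reads and 8, 4 and 8, with -1.19, and the Rac activator Dock4 had 9, 15 and 11 reads and 4, 7 and 7, with -1.24. Without ZT9 replicate 3 these 4 were at -1.75, -1.10, -1.33 and -0.94. They thus shared their direction in both fits, and none passed.

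After ZT9 replicate 3 was left out, the smallest p among hosts was that of the ubiquitin ligase gene Hecw2. It and the next 4 are named after their values were seen. Its circles had 20, 21 and 0 reads at ZT9 and 0, 6 and 11 at ZT13, with a log2 fold change of -1.81 (adjusted p = 0.423 from edgeR) against -1.42 with all samples. The syntrophin gene Sntg1 followed, with 37, 34 and 0 reads and 13, 20 and 15, and a log2 fold change of -1.08 (adjusted p = 0.423) against -0.69. Homer1 had 53, 53 and 2 reads and 21, 30 and 35, with -0.83 without the shallow library (unadjusted p of 0.00274, adjusted p = 0.423) and -0.44 with it. In these 3 the shallow library had 0 or 2 reads, and without it both ZT9 values lay above all ZT13 values. Others near the top went the other way. Nol4 had 17, 14 and 23 reads and 29, 36 and 27, with 1.06 without the shallow library (unadjusted p of 0.00246) and 0.44 with it. Arpp21, which encodes a cAMP-regulated phosphoprotein, had 10, 7 and 21 reads and 17, 22 and 25, with 1.38 (unadjusted p of 0.0038) and 0.37. None of the 5 passed.

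Genes were also grouped by role, and each group is set beside all 559 hosts tested, of which 55.3% were above 0 with a median log2 fold change of 0.06 (54.1% and 0.06 over 617 hosts without ZT9 replicate 3). No list was tested. At the presynaptic active zone, where vesicles dock and fuse, 22 of 35 genes had kept circles and 9 were tested, 4 above 0 and 5 below, with a median of -0.04 (-0.08 over 11 genes without ZT9 replicate 3). The scaffold gene Rims1 had the most reads of the list, 210, 187 and 67 at ZT9 and 145, 218 and 168 at ZT13, and normalized reads of 137 and 140 (means of 3). Rims2 had 77, 75 and 13 reads and 52, 70 and 54, and Erc2 had 50, 48 and 16 reads and 45, 69 and 55. Cadps, a priming factor of dense-core vesicles, had 28, 34 and 4 reads and 13, 31 and 27. Stxbp5l, given above, was lower at ZT13 at an unadjusted p under 0.05. Together these circles took 2.71%, 2.78% and 2.15% of the circular reads at ZT9 and 2.82%, 2.81% and 2.26% at ZT13.

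For postsynaptic scaffolds, 18 of 32 genes had kept circles and 11 were tested, 6 above 0 and 5 below, with a median of 0.15 (0.09 over 12 genes without ZT9 replicate 3). Anks1b led with 77, 89 and 56 reads at ZT9 and 48, 105 and 115 at ZT13, followed by Dlgap1 with 61, 37 and 9 reads and 24, 60 and 29. Homer1, given above with 53, 53 and 2 reads and 21, 30 and 35, came next. Dlg1, a membrane-associated guanylate kinase, had 21, 25 and 8 reads and 16, 28 and 34. The inhibitory scaffold gene Gphn had 6, 7 and 2 reads and 15, 7 and 14 (log2 fold change 1.07, unadjusted p of 0.0456, adjusted p = 0.969 from edgeR), or 0.97 without ZT9 replicate 3 at an unadjusted p of 0.0786. It was the only member of the list at an unadjusted p under 0.05 with all samples. In the fit that lacked ZT9 replicate 3, Homer1 was lower at an unadjusted p of 0.00274 and 1 other member was higher at an unadjusted p under 0.05.

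Glutamate receptor genes gave 13 of 26 with kept circles and 5 tested, 2 above 0 and 3 below, with a median of -0.31 (-0.16 without ZT9 replicate 3). The NMDA receptor subunit gene Grin2b had 19, 18 and 13 reads at ZT9 and 17, 30 and 18 at ZT13. Grm5, a metabotropic receptor gene, had 10, 28 and 4 reads and 14, 9 and 12, Grik1 had 11, 4 and 0 reads and 8, 13 and 10, and Grin2a had 10, 9 and 0 reads and 5, 7 and 5. For GABA receptors, 8 of 16 genes had kept circles and 2 were tested, 2 above 0 and 0 below, with a median of 0.60 (0.58 without ZT9 replicate 3). Circles of this list took 0.109%, 0.146% and 0.0915% of the circular reads at ZT9 and 0.166%, 0.255% and 0.18% at ZT13, without overlap. These shares rest on 19, 23 and 6 reads at ZT9 and 21, 45 and 32 at ZT13. No other list had shares that did not overlap, where chance gives 10% for each list. Gabra4 had 8, 5 and 6 reads and 3, 23 and 11, and Gabra2 had 6, 11 and 0 reads and 6, 10 and 13. The time points overlapped in normalized reads or rested on the library at 0 in each of these, and none had an unadjusted p under 0.05.

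Synaptic adhesion genes had kept circles for 24 of 41, and 11 were tested, 4 above 0 and 7 below, with a median of -0.14 (-0.08 without ZT9 replicate 3). The receptor phosphatase gene Ptprd was at an unadjusted p of 0.0344 (log2 fold change 1.41, adjusted p = 0.969 from edgeR), with 7, 4 and 0 reads at ZT9 and 11, 9 and 13 at ZT13. Its log2 fold change without ZT9 replicate 3 was 1.07 at an unadjusted p of 0.0844. The postsynaptic adhesion gene Nlgn1 had 28, 25 and 3 reads and 16, 12 and 16, Cntn5 had 20, 19 and 8 reads and 19, 20 and 29, and Nrxn3 had 13, 16 and 9 reads and 10, 16 and 11. The members therefore did not share a direction.

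Voltage-gated channel genes had kept circles for 22 of 41, and 12 were tested, 7 above 0 and 5 below, with a median of 0.08. Without ZT9 replicate 3 the median was -0.17 over the 13 genes then tested and 0.00 over the same 12. Apart from Kcnma1, none had an unadjusted p under 0.05. Cacna1a, the pore of P/Q-type calcium channels, had 16, 15 and 11 reads at ZT9 and 10, 17 and 27 at ZT13, and the potassium channel gene Kcnh5 had 11, 15 and 8 reads and 9, 24 and 16. Cacna2d1 had 13, 8 and 0 reads and 8, 18 and 20, and Kcnh1 had 15, 14 and 2 reads and 15, 11 and 10.

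Of splicing and RNA-editing regulators, 16 of 38 had kept circles and 8 were tested, 3 above 0 and 5 below, with a median of -0.19 (-0.26 without ZT9 replicate 3). Hnrnpu had 46, 34 and 37 reads at ZT9 and 45, 66 and 46 at ZT13, and Elavl3, a neuronal RNA-binding protein gene, had 48, 41 and 8 reads and 50, 46 and 54. Khdrbs3 had 21, 11 and 5 reads and 5, 9 and 17, and Nova2 had 7, 19 and 5 reads and 13, 17 and 5. None reached an unadjusted p under 0.05.

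Chromatin regulators had kept circles for 40 of 57, and 17 were tested, 10 above 0 and 7 below, with a median of 0.20. Without ZT9 replicate 3 the median was -0.08, over the 20 genes then tested and over the same 17 alike. The histone methyltransferase gene Nsd2 had 71, 65 and 24 reads at ZT9 and 52, 58 and 71 at ZT13. Ash1l, another of these enzymes, had 38, 31 and 2 reads and 27, 26 and 36, Phf21a had 29, 15 and 14 reads and 31, 25 and 28, and Nsd1 had 28, 17 and 9 reads and 9, 18 and 17. Hdac4, a histone deacetylase that shuttles between nucleus and cytoplasm, was at an unadjusted p of 0.0289 (log2 fold change 2.18, adjusted p = 0.969 from edgeR), with 0, 5 and 0 reads and 5, 11 and 12. Without the shallow library its unadjusted p was 0.0541.

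Genes of the molecular clock gave few circles. Of 34 clock genes 7 had kept circles, and together they had 27, 25 and 5 reads at ZT9 and 19, 20 and 11 at ZT13. The 1 that could be tested was Npas2, the partner of Bmal1 in the forebrain, with 19, 21 and 0 reads and 12, 11 and 7. It had normalized reads of 10.3 ± 9.04 and 8.28 ± 3.56 (SD, n = 3 each), and an unadjusted p of 0.33 with ZT9 replicate 3 and 0.0396 (adjusted p = 0.698 from edgeR) without it. The other clock genes had too few circular reads to be tested.

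Genes linked to neuronal activity or sleep need had kept circles for 20 of 43, and 10 were tested, 3 above 0 and 7 below. Their median of -0.40 came to -0.05 without ZT9 replicate 3 over the 11 then tested, and to -0.16 over the same 10. Homer1 had the most reads of them. Ntrk3, the receptor of neurotrophin-3, had 13, 17 and 6 reads at ZT9 and 13, 20 and 14 at ZT13, and Mapk4 had 16, 26 and 5 reads and 3, 11 and 20. Hdac4 is on this list too and was its only member at an unadjusted p under 0.05 with all samples, and Homer1 was the only one without ZT9 replicate 3.

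Among 37 hosts of well-studied conserved circRNAs, 30 had kept circles and 23 were tested, 16 above 0 and 7 below, with a median of 0.11 (0.07 over 26 genes without ZT9 replicate 3, 15 above and 11 below). These hosts took 7.93%, 7.67% and 8.65% of the circular reads at ZT9 and 7.63%, 7.73% and 7.68% at ZT13. Tulp4 led with 215, 186 and 65 reads and 160, 191 and 199, followed by Gigyf2, Dtnb and Slc8a1. None had an unadjusted p under 0.05 with all samples, and 2 did without ZT9 replicate 3, both lower at ZT13.

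**Figure D4:**
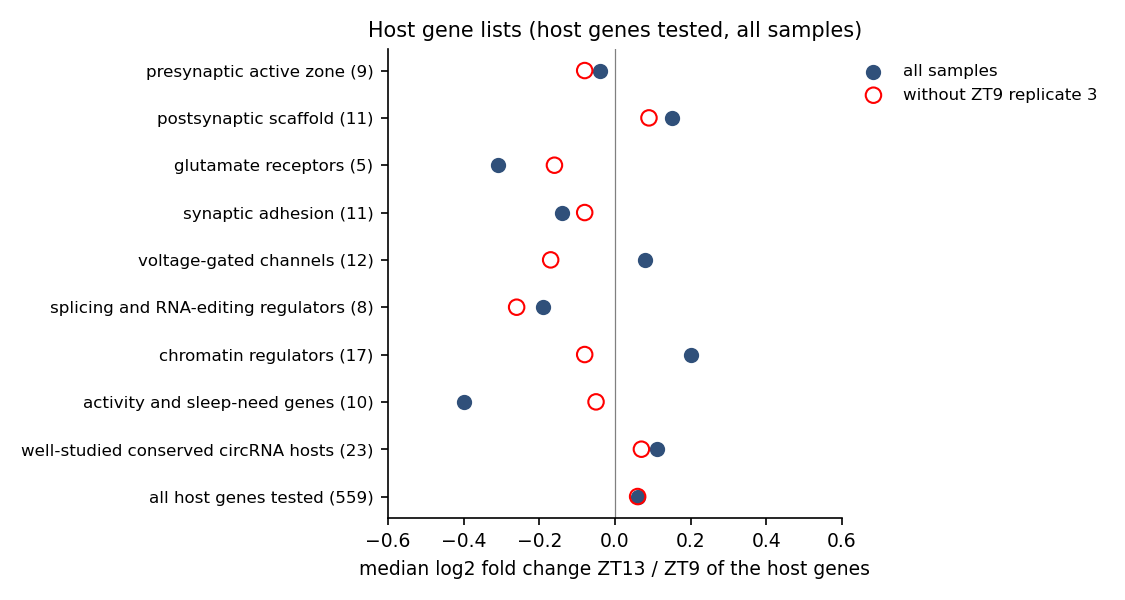
Median log2 fold change of ZT13 over ZT9 for the tested host genes of each list with 3 or more of them, with all samples (filled) and without ZT9 replicate 3 (open, over the genes tested in that fit), and the number tested with all samples in parentheses. All medians lie between -0.40 and 0.20, and those of voltage-gated channels and chromatin regulators are on different sides of 0 in the 2 fits.

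Markers of cell types were checked by the circles they host, since a change in tissue make-up would move them. Of 9 excitatory neuron markers, 3 hosted kept circles, with 29, 28 and 13 reads at ZT9 and 23, 36 and 31 at ZT13. Grin2b was the most abundant, and Slc17a7, Camk2a, Neurod6, Tbr1, Rorb and Cux2 were at 0. Of 6 inhibitory neuron markers 2 had kept circles, with 6, 0 and 0 reads and 5, 2 and 3, led by Erbb4, while Gad1, Gad2 and Dlx6os1 were at 0. Of 6 astrocyte markers 2 had kept circles, with 2, 2 and 0 reads and 2, 2 and 2, led by Npas3, and Slc1a2, Slc1a3, Gfap and Aqp4 were at 0. Oligodendrocyte markers, 3 of 7, had 4, 8 and 2 reads and 6, 2 and 4, led by Qk, with Mbp, Mobp, St18 and Elmo1 at 0. All 4 markers of oligodendrocyte precursors, 5 of microglia and 4 of endothelial cells were at 0. The sums of the neuronal and glial lists overlapped between the time points, and their reads are too few to follow tissue make-up.

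For neighbouring regions, 3 of 8 striatum markers had 11, 14 and 0 reads at ZT9 and 7, 5 and 13 at ZT13, led by Meis2, while Rgs9, Drd1, Drd2, Adora2a and Ppp1r1b were at 0. Of 5 hippocampus markers 3 had kept circles, with 14, 10 and 0 reads and 8, 7 and 6, led by Zbtb20. Prox1, Spock1 and Trps1 had 0 reads in the 6 samples. ZT9 replicate 3 was at 0 for both lists, and their part in the results was not tested.

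The change from ZT9 to ZT13 was finally set against that of the hippocampus in one fit of 36 samples. edgeR called a difference between the tissues for 0 of 710 circRNAs (0%), with 53 at an unadjusted p under 0.05 (7.46%), and DESeq2 for 0, with 57 at an unadjusted p under 0.05. The median difference over all circRNAs was 0.17 on the log2 scale, and 0.00 when reads were scaled to total circular reads. Leaving out ZT9 replicate 3 of the cortex together with ZT13 replicate 1 of the hippocampus gave 0 of 780, with 44 at an unadjusted p under 0.05. Without ZT13 replicate 2 of the hippocampus, 1 circRNA was called, of Atad2b, which was named after its values were seen.

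The Ptms circle that ends at 124914710 was present at both time points in the hippocampus, with 28, 23 and 0 reads at ZT9 and 48, 37 and 14 at ZT13. Its difference between the tissues had the smallest adjusted p from edgeR, 0.195, and did not pass. The Aff3 junction had 14, 17 and 21 reads at ZT9 and 4, 15 and 7 at ZT13 in the hippocampus, with a log2 fold change of -0.72. Its difference between the tissues was 2.16 (standard error 0.72, unadjusted p of 0.00514, adjusted p = 0.587 from edgeR). Replicate 1 of the hippocampus at ZT13, the first value of each ZT13 triplet here, had 5722 circular reads.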

How the data were processed

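For each circRNA and library the authors deposited counts of back-splice reads, which came from BWA alignment to GRCm38 and junction calls by CIRI2. The smallest count above 0 was 2, and 1 column of per-sample values was not used. Host genes, exons and sequences came from GENCODE M21 (same strand). A circRNA was kept if 2 or more replicates at some time point had reads of it. All 18 cortex samples were fitted together with edgeR 4.0.16 in R 4.3.3 (TMM scaling, filterByExpr with its defaults, quasi-likelihood test, contrast ZT13 minus ZT9, Benjamini-Hochberg adjustment, threshold 0.05). Normalized reads are per 10000 circular reads of the tested circRNAs or hosts after TMM scaling. Exact permutation tests, two-sided, compared totals and shares. Shares have 95% Wilson intervals, and folds against a group at 0 use a floor of 3 counts per library. The fitting and testing steps were tested on simulated data.

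Named were the 8 circRNAs with the smallest p in each direction, the 5 such host genes with 2 or more circles in each direction, the 6 most abundant circRNAs, and of each gene list up to 4 tested hosts with the most reads and any at an unadjusted p under 0.05. Some genes that meet these rules are not named in the text. Members and lists were chosen with earlier results of these data known. Alternatives were DESeq2 1.42.0, other scalings, no filter, a stricter rule on replicates, Cdr1as left out, 6 samples only, a replicate block and leaving out each replicate. Chosen after seeing the data were robust estimation of the spread in edgeR, DESeq2 without ZT9 replicate 3, ZT9 and ZT13 alone without that library, and both shallow libraries left out of the comparison with the hippocampus. Other software was matplotlib 3.10.9, pandas 2.3.3, scipy 1.17.1, numpy 2.4.6 and Python 3.11.15. Totals of sequenced reads and linear counts were not used here. The labels do not state whether replicates are separate animals, so p-values measure only the spread between these samples. Each time point had 3 replicates, and many circles had few reads. The labels give no cause for the low depth of ZT9 replicate 3, and whether it differs by library or by animal was not tested. Scaling assumes that most circRNAs do not differ, so a shift common to all of them would not be seen.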

Additional observations from a re-analysis of the deposited data

How the results depend on the processing

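Counts of circRNAs and hosts past the threshold stayed at 0 under most alternatives. Leaving out each replicate in turn gave 0 to 1 circRNAs and 0 to 1 host genes, with Ptms called without ZT9 replicate 1 or 2, and 0 to 1 circRNAs that differed between the tissues. With low counts not filtered it was 5 circRNAs, 3 host genes and 6 circRNAs that differed between the tissues. A rule of all 3 replicates gave 1 circRNA, and so did the fit of ZT9 and ZT13 alone without ZT9 replicate 3, an alternative chosen after seeing the data. In both it was the Ptms circle.

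With the replicate number as a block, 1 circRNA was called, the same Ptms circle, and 0 host genes. Same-numbered samples did not deviate together (r of -0.02, -0.01 and -0.10 over 518 circRNAs). Pairs with different numbers had r between -0.07 and 0.09. The labels give only a replicate number, and these values cannot tell whether same-numbered samples share anything else.

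Without ZT9 replicate 3, total circular reads turned to -3.65%, the Cdr1as share to -1.3 points, the share on contigs and ribosomal-like genes to -0.0893 and that of short circles to 0.923. Leaving out each replicate in turn gave -3.65 to 43.4% for totals, -1.3 to 2.87 points for Cdr1as, -0.216 to 0.534 for contigs and -0.985 to 0.923 for short circles. The contig share was -0.216 without ZT13 replicate 2, the short share 0.0423 without ZT13 replicate 1, and circRNAs found at equal depth -3.09% over all listed. Causes were not tested.

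Log2 fold changes of Tulp4, Dtnb and Slc8a1 turned to -0.13, -0.11 and 0.00 without ZT9 replicate 3. In alternatives chosen after seeing the data, ZT9 and ZT13 alone without that library gave -0.10 for Tulp4, 0.02 for Gigyf2, -0.08 for Dtnb and 0.03 for Slc8a1, and DESeq2 without it gave -0.09, 0.05, -0.07 and 0.05. The contig junction was 0.25 without ZT9 replicate 1, Fat3 0.01 and the host Arpp21 -0.02 without ZT9 replicate 2. Over all replicates left out, ranges were -0.13 to 0.30 for Tulp4, -0.69 to 0.25 for the contig junction, -0.11 to 0.45 for Dtnb, -0.32 to 0.01 for Fat3, -0.66 to 0.00 for Slc8a1 and -0.02 to 1.38 for Arpp21.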

Other observations

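Some circles had 0 reads in part of the 6 samples and many in the rest. The junction in Gm26917 (chromosome 17, 39844698 to 39844867), a gene that resembles ribosomal RNA, had 0, 79 and 0 reads at ZT9 and 0, 139 and 115 at ZT13, and it was found in 6 of the 18 cortex libraries with between 75 and 178 reads each. Like the circle of Ptms, it had either 0 or many reads in a library. It was chosen after its values were seen.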
